A study of Mus musculus with 15 samples.

Results

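Genes encoding the enzymes of the pentose phosphate pathway and of NADPH production were described across 5 lung cancer cell lines. The 10 genes were chosen by their function, 4 of the oxidative branch (*G6pdx*, *Pgls*, *Pgd*, *H6pd*), 4 of the nonoxidative branch (*Rpia*, *Rpe*, *Tkt*, *Taldo1*) and the 2 cytosolic NADPH producers *Me1* and *Idh1*. They were picked by name from 35880 genes listed by symbol and not by a cut on their values. Earlier results of these data were known when they were picked. All 10 passed the filter on low values that left 14652 genes to be tested.

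Glucose 6-phosphate can leave glycolysis through the pentose phosphate pathway. The oxidative branch of this pathway passes electrons to NADP+ and so makes NADPH, the reducing agent used for glutathione and thioredoxin recycling and for fatty acid synthesis, and it releases a pentose phosphate. The nonoxidative branch interconverts pentose phosphates with glycolytic sugars and can supply ribose 5-phosphate for nucleotides in either direction. Malic enzyme and isocitrate dehydrogenase in the cytosol make NADPH outside this pathway. The transcription factor NRF2 is known to drive several of these genes once KEAP1, the adaptor that marks NRF2 for degradation, is lost.

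RNA was sequenced from 5 lines of LL2, a mouse Lewis lung carcinoma cell line, with 3 samples a line and 15 samples in all. Every line derives from the luciferase-carrying LL2/Luc2 stock and was grown in the same DMEM medium with serum and antibiotics, with no treatment. The lines were the parental LL2 WT, 3 *KEAP1* KO clones numbered #1, #2 and #3, and 1 *NRF2* KO clone. Each knockout line was grown from a single cell after CRISPR editing from a plasmid carrying Cas9 and the guide. The loss of NRF2 and the particular history of the 1 *NRF2* KO clone therefore cannot be told apart. For the parental line the methods name no cloning step. The 3 samples of a line are replicates of the same cells. Values are in CPM, reads scaled so that every sample has the same total. CPM is not divided by gene length, so levels are compared below between lines for a given gene and not between genes. The values do not give the reads of each single sample, for which the methods name an average depth only.

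*Keap1* was 22.0 to 24.0 CPM in LL2 WT and much the same, 21.6 to 24.8 CPM, in the *NRF2* KO line, against 10.8 to 12.5 CPM in *KEAP1* KO #1, 4.28 to 7.29 CPM in #2 and 3.78 to 6.83 CPM in #3. *Nfe2l2*, which encodes NRF2, was still read at 102 to 146 CPM in the *NRF2* KO line, against 170 to 208 CPM in LL2 WT. The *KEAP1* KO clones lay below LL2 WT as well, at 87.0 to 124 CPM. The NRF2 target *Nqo1* averaged 30.3 CPM in LL2 WT, 276 to 488 CPM in the *KEAP1* KO clones and 9.82 CPM in the *NRF2* KO line. *Gclm*, the other target checked, averaged 58.7 CPM in LL2 WT and 400 to 566 CPM in the *KEAP1* KO clones. In the *NRF2* KO line *Gclm* averaged 48.7 CPM, its samples overlapped LL2 WT and limma found no difference (log2 difference −0.26, adjusted p = 0.721). Of 9 cell type markers examined, *Epcam*, *Cdh1*, *Nkx2-1*, *Sftpc* and *Ptprc* stayed at or under 0.422 CPM in every sample. *Ptprc* marks blood cells and the others of these mark lung epithelium. The lung epithelium markers *Krt8* and *Krt18* went the other way, at 65.1 to 186 CPM and 234 to 575 CPM over all samples. The endothelial marker *Pecam1* was read at 2.42 to 7.17 CPM in every sample. *Pecam1* was called in no line, with log2 differences from LL2 WT of 0.31 in #1, 0.67 in #2, 0.55 in #3 and 0.81 in the *NRF2* KO line, and in the last 3 of these lines every sample was above every LL2 WT sample. *Vim*, a mesenchymal filament gene, fell in all 3 *KEAP1* KO clones (log2 fold changes −1.19, −1.33 and −1.27), and the part of *Vim* and *Pecam1* in the results below was not tested.

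A gene was called when its adjusted p-value was under 0.05 (limma, Benjamini-Hochberg over all 14652 tested genes) and its log2 fold change, on the log2(CPM + 0.1) scale, was over 1 in size. The words rose and fell are kept for called genes. Against LL2 WT, 3 of the 10 enzyme genes rose in *KEAP1* KO #1, 3 in #2 and 4 in #3, and none was called lower. The share of all tested genes called higher was 4.55% in #1, 5.94% in #2 and 6.09% in #3, and the share called lower was 3.99%, 7.75% and 7.34%. *G6pdx*, *Taldo1* and *Me1* rose in all 3 clones and *Pgd* rose in #3. In the *NRF2* KO line 1 enzyme gene, *Me1*, fell and none rose, where 0.375% of all tested genes were called lower and 0.0887% higher. The median log2 fold change of the 10 genes was 0.40 in #1, 0.08 in #2, 0.17 in #3 and −0.33 in the *NRF2* KO line, beside 0.11, 0.03, 0.02 and 0.04 over all tested genes. The samples of the 2 lines compared did not overlap for 8 of the 10 genes in #1, 6 in #2, 7 in #3 and 5 in the *NRF2* KO line, and the same held for 37.0%, 42.0%, 40.0% and 13.2% of all tested genes.

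**Figure D1:**
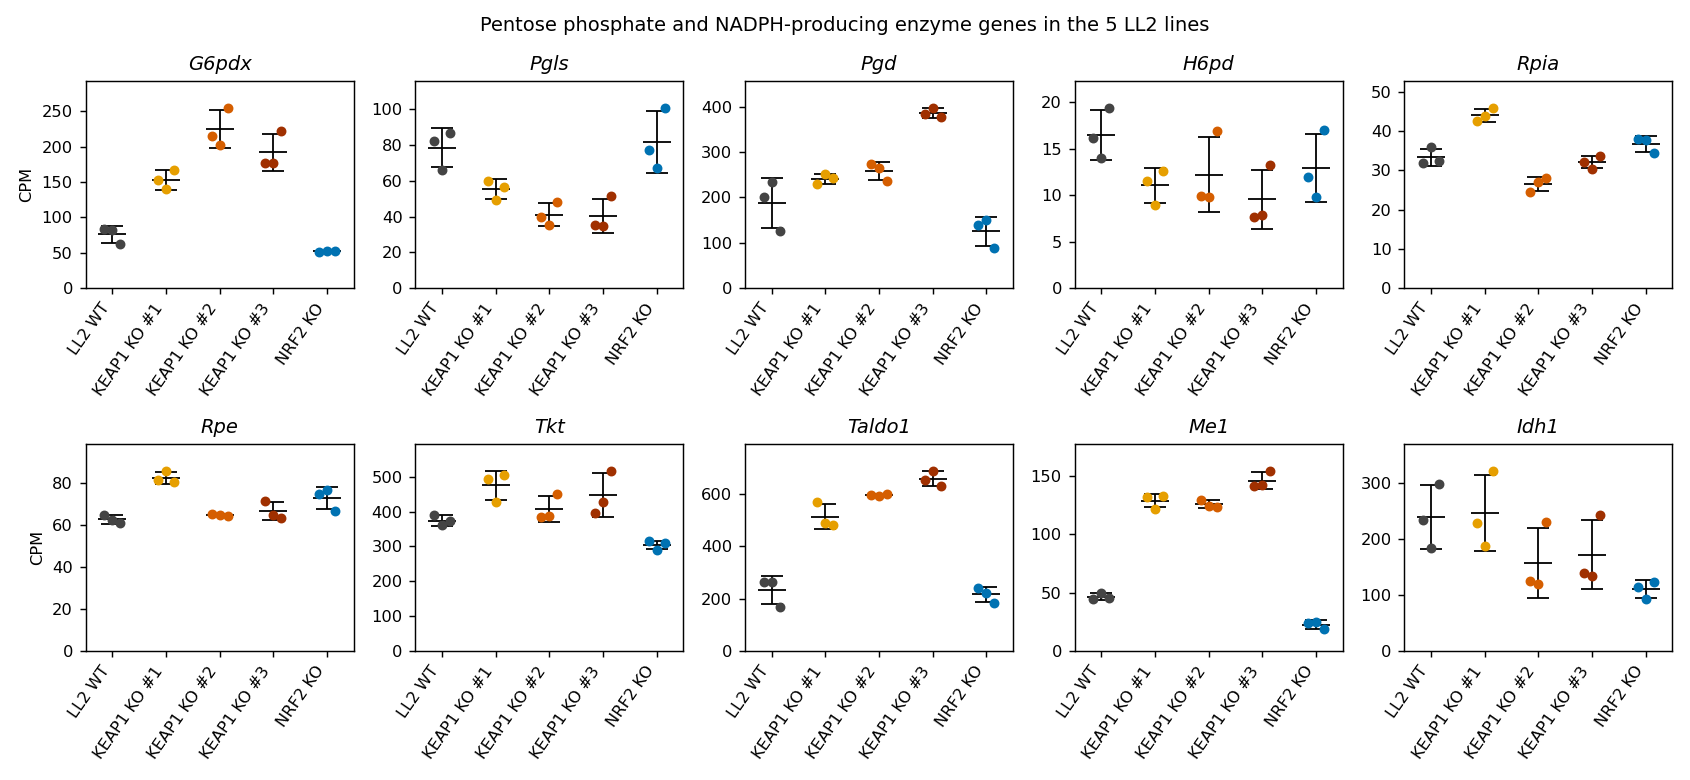
Level of each of the 10 enzyme genes in the 15 samples, in CPM on a linear axis that starts at 0 and has its own range for each gene, with the 5 lines along the horizontal axis. Points are samples, and the bar and whiskers are the mean and SD of the 3 samples of a line; *G6pdx*, *Taldo1* and *Me1* lie higher in every sample of the *KEAP1* KO clones than in any LL2 WT sample, while *Pgls* lies lower.

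**Figure D2:**
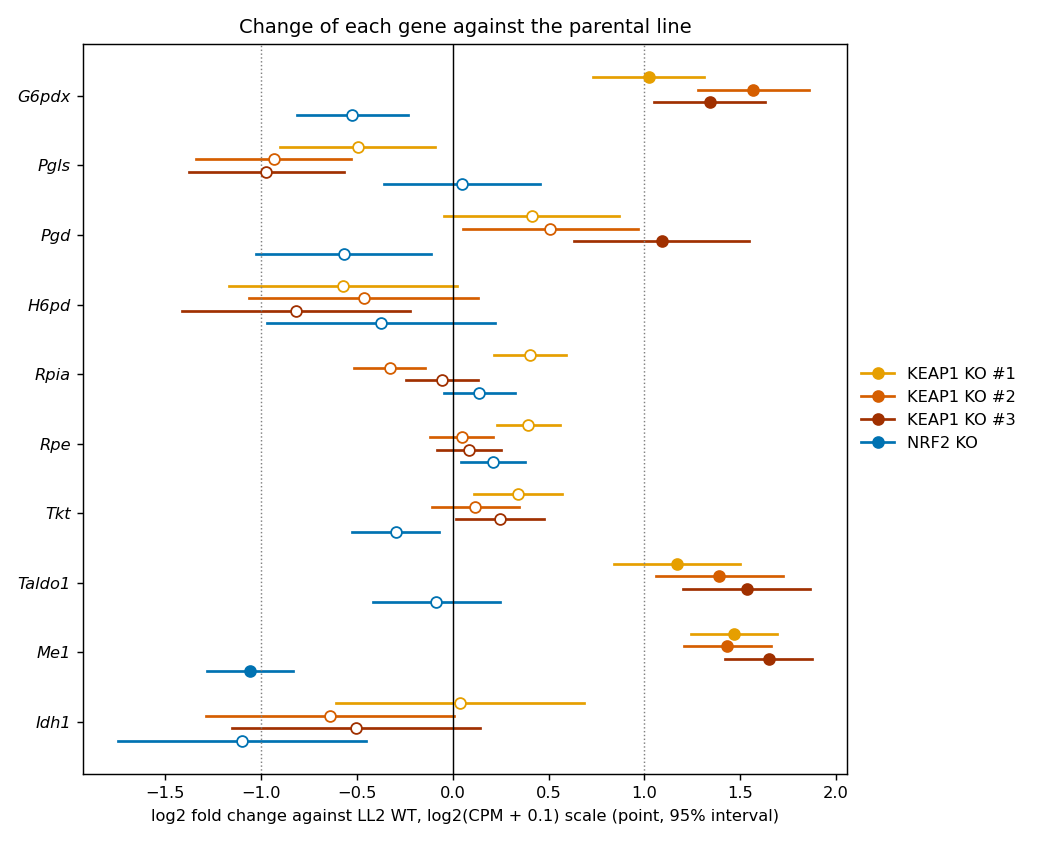
Log2 fold change of each enzyme gene against LL2 WT in the 3 *KEAP1* KO clones and the *NRF2* KO line, with its 95% confidence interval from limma. Filled points are called genes and open points are not; the filled points are *G6pdx*, *Taldo1* and *Me1* in all 3 clones and *Pgd* in #3 to the right, and *Me1* in the *NRF2* KO line to the left.

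*G6pdx* encodes glucose-6-phosphate dehydrogenase, which commits glucose 6-phosphate to the oxidative branch and makes the first NADPH. The gene lies on chromosome X at chrX:74409483-74429194 (GRCm38, minus strand). Because NRF2 acts through the antioxidant response element (ARE), the promoter windows of the 10 genes were searched on both strands for its core, TGACNNNGC. RefSeq (GRCm38.p6) gave 13 windows for the 10 genes, each of 300 bases with 250 before the transcription start and 50 after. The core stood in the windows of 3 genes, *G6pdx*, *Me1* and *Pgd*, beside 14.0% of all 27025 genes. It stood in 3 of the 13 windows, beside 12.4% of all 32851 windows, and the other window of *Me1* and that of *Pgd* held none. The 30 bases around each of these 3 matches are printed here on the strand of the gene with the core in capitals, since *G6pdx* and *Me1* rose in every *KEAP1* KO clone and *Pgd* in #3.
*G6pdx* (chrX:74428918-74428947, minus strand): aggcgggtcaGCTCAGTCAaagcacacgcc
*Me1* (chr9:86695901-86695930, minus strand): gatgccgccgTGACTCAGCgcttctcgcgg
*Pgd* (chr4:149166060-149166089, minus strand): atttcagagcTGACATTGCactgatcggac
In *G6pdx* the core reads TGACTGAGC on the strand opposite to the gene and spans the bases 57 to 49 before the start. In *Me1* it reads TGACTCAGC and runs from 6 bases before the start to 2 bases after it, and it overlaps the AP-1 core TGANTCA, which stood in 7.81% of all windows. In *Pgd* it reads TGACATTGC and lies 3 to 11 bases after the second of its RefSeq starts. The windows of the other 7 genes, *Taldo1* among them, held no such letters. A match of this length is a description of the sequence and was not tested as a binding site.

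*G6pdx* was 84.2, 81.8 and 61.9 CPM in the 3 LL2 WT samples. It was 153, 139.6 and 168 CPM in *KEAP1* KO #1, 216, 203 and 255 CPM in #2, and 176, 177 and 223 CPM in #3. The *NRF2* KO samples read 51.4, 52.5 and 53.0 CPM. All 9 *KEAP1* KO samples were above all LL2 WT samples, and all *NRF2* KO samples were below them. The means were 76.0 ± 12.23 CPM in LL2 WT, 153 ± 14.0, 225 ± 26.9 and 192 ± 26.8 CPM in the clones, and 52.3 ± 0.810 CPM in the *NRF2* KO line (SD, n = 3 here and below). *G6pdx* therefore rose 2.03-fold in #1 (log2 fold change 1.02 ± 0.13 SE, adjusted p = 0.000184), 2.97-fold in #2 (1.57, adjusted p = 2.67e-06) and 2.53-fold in #3 (1.34, adjusted p = 9.84e-06). The call in #1 stood at the fold threshold, with log2 fold changes of 0.92 after rescaling by the median ratio and 0.90 after quantile normalization. Without the third LL2 WT sample, the lowest of the 3, it was 0.88, and without the third sample of #1 it was 0.96. The *NRF2* KO difference did not pass the test (−0.52, 95% interval −0.81 to −0.24, adjusted p = 0.133). The order of the line means was #2, #3, #1, LL2 WT, *NRF2* KO. The neighbours #2 and #3 did not differ by the test (adjusted p = 0.765), nor #3 and #1 (adjusted p = 0.152), while #2 was above #1 by 0.55 (adjusted p = 0.0197), under the fold threshold. In the annotation *G6pdx* overlaps *Ikbkg* on the opposite strand, and 23.6% of its 31-base stretches also occur in transcripts of other genes, *Ikbkg* and the retrocopy *G6pd2*. *Ikbkg* averaged 79.8 CPM over the 15 samples, so reads of the shared stretches could come from either gene. *G6pd2* was listed at 0 in all LL2 WT and *NRF2* KO samples and reached at most 0.0464 CPM.

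*Pgls* encodes 6-phosphogluconolactonase, which opens the lactone made by G6PDX. It lies at chr8:71592176-71601092 (GRCm38, plus strand). *Pgls* was 82.2, 66.1 and 87.1 CPM in LL2 WT, and the *NRF2* KO line read 77.4, 67.0 and 101 CPM. It was 60.0, 49.5 and 56.8 CPM in *KEAP1* KO #1, 39.6, 35.5 and 48.3 CPM in #2, and 35.2, 34.5 and 51.4 CPM in #3. All 9 *KEAP1* KO samples were below all 6 samples of the other lines. The log2 fold changes against LL2 WT were −0.50 in #1 (adjusted p = 0.0737), −0.93 in #2 (adjusted p = 0.00232) and −0.97 in #3 (adjusted p = 0.00167). The last 2 passed the p-value threshold but were just short of the fold threshold, and no change was called. Quantile normalization placed them at −1.03 and −1.06, past it. *Pgls* did not differ between the *NRF2* KO line and LL2 WT beyond the spread of the samples (0.05, 95% interval −0.36 to 0.45). The order of the means was *NRF2* KO, LL2 WT, #1, #2, #3, and no pair of neighbours in it passed the test. *Pgls* shares 19.5% of its 31-base stretches with *Fam129c*, which overlaps it on the same strand.

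*Pgd* encodes 6-phosphogluconate dehydrogenase, which makes the second NADPH of the branch and releases ribulose 5-phosphate. It lies at chr4:149149991-149166771 (GRCm38, minus strand). *Pgd* was 202, 234 and 126 CPM in LL2 WT. It read 229.9, 251 and 242 CPM in clone #1, 273, 264 and 237 CPM in #2, and 384, 397 and 377 CPM in #3. The *NRF2* KO line read 138, 149 and 88.1 CPM. The samples of #1 overlapped those of LL2 WT, the samples of #2 lay just above them, and those of #3 were far above all other samples. *Pgd* rose 2.13-fold in #3 (1.09 ± 0.21 SE, adjusted p = 0.0017). The differences of 0.41 in #1 (adjusted p = 0.179) and 0.51 in #2 (adjusted p = 0.0827) did not pass the test, nor did −0.57 in the *NRF2* KO line (adjusted p = 0.326). The order of the means was #3, #2, #1, LL2 WT, *NRF2* KO. #3 was above #1 by 0.68 (95% interval 0.22 to 1.14, adjusted p = 0.0533) and above #2 by 0.58 (adjusted p = 0.391), so the 3 clones were not separated by the test. The third LL2 WT sample was the lowest of its line. Without it the value of *Pgd* in #3 was 0.83, and after quantile normalization 0.94, both below the fold threshold.

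*H6pd* encodes hexose-6-phosphate dehydrogenase, which carries out the opening steps of the oxidative branch inside the endoplasmic reticulum. It lies at chr4:149979475-150009023 (GRCm38, minus strand). *H6pd* was 16.1, 14.0 and 19.4 CPM in LL2 WT. It read 11.6, 8.98 and 12.7 CPM in clone #1, 9.93, 9.80 and 16.9 CPM in #2, and 7.61, 7.82 and 13.2 CPM in #3. The *NRF2* KO line read 12.0, 9.83 and 17.0 CPM. The LL2 WT mean was the highest of the 5 lines, but the samples of #2 and of the *NRF2* KO line overlapped it. Only the difference in #3 had an adjusted p under 0.05 (−0.82, adjusted p = 0.0386), short of the fold threshold. The other 3 differences lay between −0.57 and −0.37 and did not pass. Without the third sample of #3 the count of called genes in that clone was 6, since *Pgls* and *H6pd* were then called lower.

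Among the 4 oxidative branch genes, *G6pdx* rose in every *KEAP1* KO clone and *Pgd* in #3, while *Pgls* and *H6pd* had lower means in every clone. The median log2 fold changes of these 4 genes were −0.04 in #1, 0.02 in #2 and 0.14 in #3.

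*Rpia* and *Rpe* encode ribose-5-phosphate isomerase and ribulose-5-phosphate epimerase, which turn ribulose 5-phosphate into ribose 5-phosphate and xylulose 5-phosphate. *Rpia* lies at chr6:70765720-70792232 (GRCm38, minus strand) and *Rpe* at chr1:66700831-66719805 (GRCm38, plus strand). *Rpia* was 31.9, 35.9 and 32.3 CPM in LL2 WT. It read 42.6, 43.8 and 45.9 CPM in clone #1, 24.6, 27.1 and 28.0 CPM in #2, 32.3, 30.5 and 33.6 CPM in #3, and 38.1, 37.7 and 34.5 CPM in the *NRF2* KO line. Clone #1 was the highest line and #2 the lowest, with no overlap between either and any other line. The log2 difference from LL2 WT was 0.40 in #1 (adjusted p = 0.00506) and −0.33 in #2 (adjusted p = 0.0113). Both passed on p-value and neither passed on fold. Clone #3 (−0.05, 95% interval −0.24 to 0.13) and the *NRF2* KO line (0.14, 95% interval −0.05 to 0.33) did not pass.

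*Rpe* was 64.9, 62.6 and 60.8 CPM in LL2 WT. It read 81.3, 85.9 and 80.5 CPM in clone #1, 65.2, 64.9 and 64.2 CPM in #2, 71.5, 64.9 and 63.3 CPM in #3, and 74.9, 76.8 and 66.8 CPM in the *NRF2* KO line. All 3 samples of #1 were above all other samples. Its difference from LL2 WT was 0.40 (adjusted p = 0.00282), whereas #2 (0.05), #3 (0.08) and the *NRF2* KO line (0.21, adjusted p = 0.316) did not pass. Quantile normalization turned the small differences of #2 and #3 to −0.05 and −0.01, so they have no stable direction. Of the 31-base stretches of *Rpe*, 16.4% are shared with *Kansl1l*, which overlaps it on the opposite strand.

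*Tkt* encodes transketolase, which moves carbon pairs between the sugars of the nonoxidative branch. It lies at chr14:30548359-30574720 (GRCm38, plus strand). *Tkt* was 391, 361 and 372 CPM in LL2 WT. It read 493, 429 and 505 CPM in clone #1, 385, 388 and 450.0 CPM in #2, and 396, 428 and 518 CPM in #3. The *NRF2* KO line read 315, 291 and 309 CPM, below every other sample. The samples of #1 and #3 were above all LL2 WT samples, and those of #2 overlapped them. The log2 difference from LL2 WT was 0.34 in #1 (adjusted p = 0.0334), under the fold threshold. It was 0.12 in #2 (adjusted p = 0.418, −0.01 after quantile normalization) and 0.25 in #3 (adjusted p = 0.0924). The *NRF2* KO line differed by −0.30 (95% interval −0.53 to −0.07, adjusted p = 0.302). The order of the means was #1, #3, #2, LL2 WT, *NRF2* KO, and no pair of neighbours in it passed the test.

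*Taldo1* encodes transaldolase, which moves a dihydroxyacetone unit in the same branch. It lies at chr7:141392199-141402968 (GRCm38, plus strand). *Taldo1* was 265, 262 and 169 CPM in LL2 WT, and the *NRF2* KO line read 241, 223 and 184 CPM. It was 569, 489 and 482 CPM in *KEAP1* KO #1, 599, 594 and 599 CPM in #2, and 655, 689.8 and 631 CPM in #3. Every *KEAP1* KO sample was above every sample of the other 2 lines, which overlapped each other. *Taldo1* rose 2.25-fold in #1 (1.17 ± 0.15 SE, adjusted p = 0.000182), 2.63-fold in #2 (1.39, adjusted p = 2.38e-05) and 2.89-fold in #3 (1.53, adjusted p = 9.67e-06). Without the third LL2 WT sample, the lowest of its line, the value in #1 was 0.96, below the fold threshold. The *NRF2* KO line differed from LL2 WT by −0.09 (95% interval −0.42 to 0.24, adjusted p = 0.885). The order of the means was #3, #2, #1, LL2 WT, *NRF2* KO. The samples of the 3 clones did not overlap each other, but the clones were not separated by the test. *Taldo1* shares 14.0% of its 31-base stretches with other genes, nearly all with the pseudogene *Gm17823*, which averaged 0.0280 CPM.

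Of the nonoxidative branch, therefore, *Taldo1* rose in every *KEAP1* KO clone and *Tkt*, *Rpia* and *Rpe* were called in none. In #1 the adjusted p of all 4 genes was under 0.05 with higher levels in the clone, as for 15.9% of all tested genes. In #2 this held for *Taldo1* alone (17.3% of all tested genes), with *Rpia* lower, and in #3 for *Taldo1* alone (16.6%).

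*Me1* encodes cytosolic malic enzyme, which turns malate into pyruvate and makes NADPH. It lies at chr9:86581371-86695953 (GRCm38, minus strand). *Me1* was 44.8, 49.8 and 45.3 CPM in LL2 WT. It was 132, 122 and 133 CPM in *KEAP1* KO #1, 129.6, 125 and 123 CPM in #2, and 142, 143 and 155 CPM in #3. The *NRF2* KO samples read 24.0, 25.0 and 18.5 CPM. The 3 kinds of line formed 3 ranges with no overlap, *KEAP1* KO over LL2 WT over *NRF2* KO. *Me1* rose 2.77-fold in #1 (1.47 ± 0.10 SE, adjusted p = 9.93e-07), 2.70-fold in #2 (1.43, adjusted p = 6.89e-07) and 3.14-fold in #3 (1.65, adjusted p = 1.89e-07). It fell 2.08-fold in the *NRF2* KO line (−1.06, 95% interval −1.28 to −0.83, adjusted p = 0.000262) and was the 1 enzyme gene called in opposite directions in the *KEAP1* KO and *NRF2* KO lines. The *NRF2* KO call stood at the threshold. It was −0.92 without the third *NRF2* KO sample and −0.94 without the third sample of every line, and its adjusted p was 0.164 when only the LL2 WT and *NRF2* KO samples entered the model. The clones differed from each other by −0.03 (#2 against #1), 0.18 (#3 against #1) and 0.22 (#3 against #2), none past the test. Of the 31-base stretches of *Me1*, 36.9% occur in other genes, chiefly the pseudogene *Gm7049*, which averaged 0.0559 CPM, and *Gm48795*, for which no value was listed.

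*Idh1* encodes cytosolic isocitrate dehydrogenase, which makes NADPH from isocitrate. It lies at chr1:65158616-65186500 (GRCm38, minus strand). *Idh1* was 233, 184 and 299 CPM in LL2 WT. It read 229, 188 and 322 CPM in clone #1, 125, 119 and 229.9 CPM in #2, and 139, 133 and 243 CPM in #3. The *NRF2* KO line read 114, 92.5 and 124 CPM, below every LL2 WT sample. The samples of all 3 *KEAP1* KO clones overlapped LL2 WT. None of the 4 differences from LL2 WT passed the test in the fit over all samples without a term for the sample number. They were 0.04 in #1 (95% interval −0.61 to 0.68), −0.64 in #2 (−1.29 to 0.01), −0.50 in #3 (−1.15 to 0.14) and −1.10 in the *NRF2* KO line (−1.75 to −0.45, adjusted p = 0.161). The third sample was the highest of its line in all 5 lines. Without the third sample of every line, *Idh1* was lower in the *NRF2* KO line by −1.01 (adjusted p = 0.0297), a call.

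The 3 *KEAP1* KO clones were then set against each other in 30 tests, 10 genes by 3 pairs. No enzyme gene was called in any pair by limma, where 4.58% of all tested genes were called between #2 and #1, 4.63% between #3 and #1 and 0.485% between #3 and #2. At an unadjusted p under 0.05, 5, 6 and 2 genes differed in these pairs, beside 24.1%, 25.8% and 8.22% of all tested genes. The differences with an adjusted p under 0.05, all below the fold threshold, were those of *G6pdx*, *Rpia* and *Rpe* from #1. *Rpia* was lower than in #1 by −0.73 in #2 (95% interval −0.92 to −0.55, adjusted p = 0.000177) and by −0.46 in #3 (adjusted p = 0.00446). *Rpe* was lower than in #1 by −0.35 in #2 (adjusted p = 0.0115) and by −0.31 in #3 (adjusted p = 0.0192). For *Taldo1* and *Me1* the intervals of all differences between clones stayed between −0.26 and 0.69.

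Each *KEAP1* KO clone was also set directly against the *NRF2* KO line. These comparisons share their clone samples with those above. Against the *NRF2* KO line, 4 genes were called in #1, 4 in #2 and 5 in #3, beside 6.70%, 10.7% and 11.2% of all tested genes. *G6pdx* was 2.92, 4.27 and 3.64 times its *NRF2* KO level in #1, #2 and #3. *Me1* was 5.76, 5.63 and 6.53 times its *NRF2* KO level, the widest separation among the 10 genes. *Taldo1* was 2.39, 2.79 and 3.07 times its *NRF2* KO level. *Pgd* was called higher in #2 (1.08, adjusted p = 0.00238) and #3 (1.66, adjusted p = 8.04e-05) and reached 0.98 in #1 (adjusted p = 0.00673). Without the third *NRF2* KO sample the value in #2 was 0.84, below the fold threshold. *Idh1* was called higher in #1 (1.14, adjusted p = 0.021), where it differed from LL2 WT by 0.04. This call was lost without the third sample of #1 (adjusted p = 0.089) and without *NRF2* KO sample 1 (0.0544) or 2 (0.0725). *Pgls* was called lower in #3 (−1.02, adjusted p = 0.00144), at the fold threshold. It was short of it after rescaling by the median ratio (−0.98) and without #3 sample 1 (−0.93), #3 sample 2 (−0.92) or *NRF2* KO sample 3 (−0.86). *Tkt* was higher in all 3 clones by 0.64, 0.42 and 0.54 (adjusted p = 0.00113, 0.0119 and 0.00207), always under the fold threshold. *Rpia* was lower in #2 by −0.47 (adjusted p = 0.00156), under the fold threshold. Its differences of 0.26 in #1 (adjusted p = 0.0587) and −0.19 in #3 (adjusted p = 0.125) did not pass the test. *Rpe* and *H6pd* did not pass in any clone.

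The rest of the pathway was followed through a list of 13 genes of ribose and pentose metabolism, of which 9 were tested. *G6pd2*, *Tktl1*, *Tktl2* and *Prps1l1* did not pass the filter on low values. No gene of this list was called higher in any *KEAP1* KO clone or in the *NRF2* KO line, and 1 was called lower. Of all tested genes, 4.55%, 5.94% and 6.09% were called higher in #1, #2 and #3, and 3.99%, 7.75% and 7.34% lower. In the *NRF2* KO line these shares were 0.0887% and 0.375%. With shares of this size, a list of 9 genes would hold few calls in any case. *Shpk*, which encodes the sedoheptulose kinase that feeds the nonoxidative branch, fell in #3 (−1.37 ± 0.47 SE, adjusted p = 0.0398). Its values were 0.637, 0.170 and 0.946 CPM in LL2 WT, against 0.0775, 0.214 and 0.115 CPM in #3, close to the pseudocount, and the samples overlapped. The call was lost without the filter on low values (adjusted p = 0.0608) and with a pseudocount of 1 CPM (−0.45, adjusted p = 0.0501). It was also lost without LL2 WT sample 1 or 3 and without #3 sample 1 or 3, with adjusted p from 0.0786 to 0.162. At any fold, an adjusted p under 0.05 with higher levels was reached by 3, 2 and 2 of the 9 genes in #1, #2 and #3. The same held for 15.9%, 17.3% and 16.6% of all tested genes, and *Shpk* in #3 was the only one of the 9 to pass with lower levels. The next 2 genes were chosen after their values were seen, because they shifted in all 3 clones below the fold threshold. *Prps2*, which makes phosphoribosyl pyrophosphate from ribose 5-phosphate, was 24.3 to 32.6 CPM in LL2 WT, against 40.6 to 44.5 CPM in the clones, with log2 differences of 0.62, 0.69 and 0.66 (adjusted p = 0.00136, 0.000355 and 0.00049). *Tigar*, a fructose bisphosphatase that spares glucose 6-phosphate for the oxidative branch, was 6.51 to 14.0 CPM in LL2 WT, against 14.6 to 20.3 CPM in the clones. Its log2 differences were 0.79, 0.83 and 0.75 (adjusted p = 0.0407, 0.025 and 0.0396). Without LL2 WT sample 2, the highest of its line, they were 1.05, 1.09 and 1.01, past the fold threshold, and without LL2 WT sample 3, the lowest, they were 0.50, 0.54 and 0.46 with adjusted p from 0.101 to 0.159.

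A list of 16 other genes, from mitochondrial malic enzyme and isocitrate dehydrogenases to folate enzymes and NAD kinases, was tested whole. Not all of these genes encode enzymes that make NADPH. None was called against LL2 WT by limma in any line. Of all tested genes, 4.55% to 6.09% were called higher and 3.99% to 7.75% lower in the *KEAP1* KO clones. In the *NRF2* KO line 0.0887% were called higher and 0.375% lower. At an unadjusted p under 0.05, 5 genes differed in #1, 9 in #2, 7 in #3 and 0 in the *NRF2* KO line, beside 36.3%, 42.9%, 42.6% and 11.2% of all tested genes. An adjusted p under 0.05 at any fold was reached by 3 of the 16 in #1, 3 in #2, 2 in #3 and 0 in the *NRF2* KO line, beside 23.2%, 31.9%, 31.4% and 0.621% of all tested genes. *Idh2*, the mitochondrial counterpart of *Idh1*, was 114, 95.5 and 88.7 CPM in LL2 WT, and *KEAP1* KO #1 read 106, 80.7 and 105 CPM. It was 55.6, 54.8 and 79.0 CPM in #2 and 53.0, 56.7 and 83.1 CPM in #3. Its samples in #2 and #3 lay below all LL2 WT samples and its log2 differences there were −0.67 (adjusted p = 0.0176) and −0.65 (adjusted p = 0.0203), with −0.04 in #1. The folate enzyme gene *Mthfd2l*, again chosen after its values were seen, was higher in all 3 clones by 0.58, 0.43 and 0.52 (adjusted p = 0.0109, 0.0352 and 0.015). The median log2 fold change of the 16 genes was 0.00 in #1, −0.03 in #2, −0.07 in #3 and 0.09 in the *NRF2* KO line.

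The profiles of the 10 genes over the 15 samples were compared by Pearson correlation of log2(CPM + 0.1), given as a description only, because samples of a line share a clone and most of the variation lies between lines. *G6pdx*, *Taldo1* and *Me1* were the most alike, with r = 0.953 for *Me1* and *G6pdx*, 0.951 for *Taldo1* and *G6pdx*, and 0.934 for *Taldo1* and *Me1*. *Pgd* was near them, at 0.888 with *Taldo1* and 0.880 with *Me1*. *Pgls* ran opposite to these genes, from −0.898 with *Taldo1* to −0.824 with *Me1*, and was most like *H6pd* among the enzyme genes, at 0.758. *Rpia* and *Rpe* were alike at 0.779. Among the tested genes whose mean reached 1 CPM, the 3 most like *G6pdx* were *Pcx* (0.979), *Abcb6* (0.977) and *Mest* (0.976). The 3 most like *Taldo1* were *Gclm* (0.987), *Fgfbp1* (0.984) and *Psmd5* (0.982), and the 3 most like *Me1* were *Cbr3*, *Pla2g4a* and *Nqo1* (each 0.989).

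**Figure D3:**
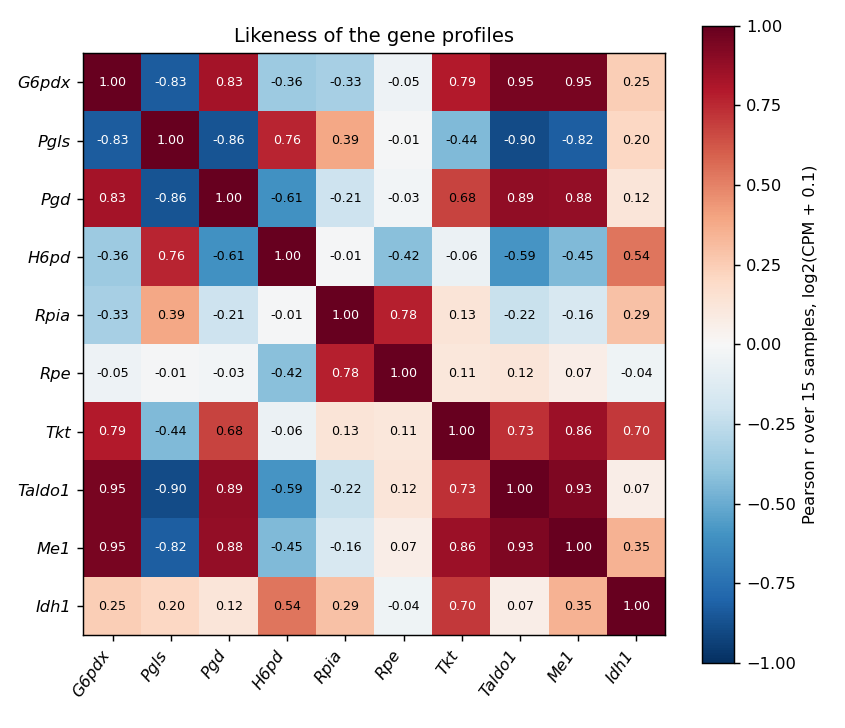
Pearson r between the profiles of the 10 enzyme genes over the 15 samples, on log2(CPM + 0.1), as a grid of genes by genes with the color scale giving r. *G6pdx*, *Taldo1*, *Me1* and *Pgd* form a block of high r, and *Pgls* has negative r with each of them, down to −0.898 with *Taldo1*.

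When the mean of its line was taken from each value, so that only the spread among the 3 samples of a line remained, a different set of genes moved together. *H6pd* then had r = 0.949 with *Pgls*, 0.934 with *Idh1* and 0.839 with *Tkt*, although over all samples *H6pd* and *Tkt* had r = −0.062. *Pgd* and *Taldo1* had r = 0.838 within lines, and *Pgd* and *Pgls* −0.675. The sample numbered 3 stood at one end for several genes. It was the highest of its line in 5 of 5 lines for *Idh1* and *H6pd* and in 4 for *Pgls* and *G6pdx*. It was the lowest in 5 of 5 lines for *Rpe* and in 4 for *Pgd* and *Taldo1*. For *G6pdx* the third sample was the lowest in LL2 WT, at −0.28 from the line mean. In #1, #2 and #3 the third *G6pdx* sample lay 0.13, 0.19 and 0.22 above the line mean. Over the 5 lines the sample numbered 3 lay on average 0.42 above the mean of its line for *Idh1* and 0.38 for *H6pd*. It lay −0.23 from that mean for *Pgd* and −0.16 for *Taldo1*, in log2 units. No label says what the number 3 shares between lines. Without the third sample of every line, the counts of called genes were 2 in #1, 3 in #2, 4 in #3 and 1 in the *NRF2* KO line. That 1 gene was *Idh1*, called lower at −1.01, while the call of *Me1* in the *NRF2* KO line was lost at −0.94. *Taldo1* and *Me1* were then still called higher in all 3 clones, *G6pdx* in #1 was 0.82, *Pgd* in #3 was 0.85 and *Pgls* in #3 was called lower at −1.08.

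**Figure D4:**
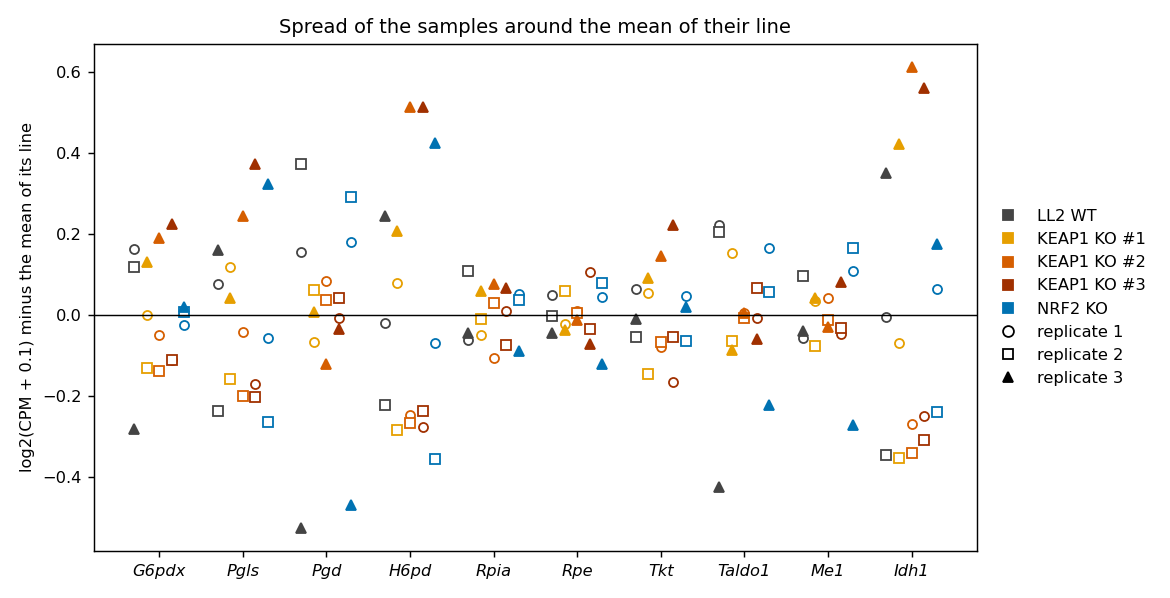
Log2(CPM + 0.1) of each of the 15 samples minus the mean of its line, for each of the 10 enzyme genes along the horizontal axis, with colors for lines and marker shapes for the sample number. The third samples, drawn filled, lie above 0 in all 5 lines for *Idh1*, *H6pd* and *Pgls* and below 0 in all 5 lines for *Rpe*.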

How the data were processed

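RNA from 15 samples of 5 LL2 lines was sequenced as messenger RNA libraries. The authors demultiplexed with bcl2fastq 1.9.0, pseudo-aligned with Kallisto and deposited CPM (reads scaled to one total per sample) per gene symbol for each sample. Their methods name the GRCm38.p6 transcripts and the processing notes name GRCm39. Coordinates here come from GENCODE on GRCm38 and promoters from RefSeq, both matched by symbol. The methods give an average depth only. Values are fractional with no whole-read step, so the depth and counting error of each sample are unknown. A row without a symbol (0.0214% to 0.0490% of a sample) was left out. Genes with a summed CPM of at least 3 were kept. limma 3.58.1 (R 4.3.3) was fitted to log2(CPM + 0.1) with a mean per line over all 15 samples and a trended variance, for 10 pairs of lines. P-values measure the spread between samples of a clone. Intervals are 95%.

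All 10 enzyme genes are named. From the 2 wider lists, genes called against LL2 WT, genes not tested, *G6pd2* and *Idh2* are named by rule, and *Prps2*, *Tigar* and *Mthfd2l* were added after their values were seen. The genes and lists were chosen with earlier results of these data known. Likeness is Pearson r, with the 3 highest genes named for members called in all 3 *KEAP1* KO clones. Stretches of 31 bases were compared between GENCODE transcripts. Alternatives were other pseudocounts, filters and scalings, an untrended variance, a replicate block, only the lines compared, and samples left out. The fit was tested on simulated data with independent samples and changes larger than the fold threshold. This does not cover calls near the threshold.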

Additional observations from a re-analysis of the deposited data

Results flagged for a closer look

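*G6pdx*, *Rpia* and *Rpe* differed between *KEAP1* KO clones by a limma contrast of the clones themselves (adjusted p under 0.05 over all tested genes), each by less than 1 on the log2 scale. *G6pdx* was higher in #2 than in #1 by 0.55, with all 3 samples of #2 above all 3 of #1 (225 ± 26.9 against 153 ± 14.0 CPM). With 1 sample left out at a time its adjusted p ran from 0.0302 to 0.0773 and was over 0.05 in 4 of 6 fits. *Rpia* was lower in #2 and #3 than in #1, by −0.73 and −0.46 (26.6 ± 1.74 and 32.1 ± 1.57 against 44.1 ± 1.69 CPM). *Rpe* was lower in #2 and #3 than in #1 as well, by −0.35 and −0.31 (64.8 ± 0.556 and 66.6 ± 4.35 against 82.6 ± 2.95 CPM). After rescaling by the median ratio the *Rpe* differences did not pass (−0.26, adjusted p = 0.132, and −0.21, adjusted p = 0.215), and that of #3 was over 0.05 in 4 of 6 fits with 1 sample left out, up to 0.0778. *Keap1* transcript also differed between these clones (11.8 CPM in #1, 5.53 in #2 and 5.58 in #3), and its part in these differences was not tested. The median of all tested genes lay at −0.08 in #2 and −0.10 in #3 against #1.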

How the results depend on the processing

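The counts of enzyme genes called against LL2 WT were 3, 3 and 4 in *KEAP1* KO #1, #2 and #3 and 1 in the *NRF2* KO line. Leaving out each replicate in turn gave 1 to 3 in #1 (1 without LL2 WT sample 3), 3 to 4 in #2, 3 to 6 in #3 (6 without its own sample 3), 0 to 1 in the *NRF2* KO line (0 without its sample 3), 11 to 14 for the clones against the *NRF2* KO line and 0 between clones. With only the lines compared in the model, the *NRF2* KO count was 0. Samples with the same number shared some deviation (median correlation 0.276 over 30 pairs, −0.192 over 60 pairs with different numbers), most of all those numbered 3. The line mean was taken from each value first. A positive value at the same number then forces a negative one at different numbers, so −0.192 is no separate contrast. Every pair was over 0.1 for #2 with #3 (0.126 to 0.546) and #3 with the *NRF2* KO line (0.129 to 0.552) but not for the other 8 pairs of lines. A sample was closest to its own number, of 3 to choose from, in 40 of 60 cases. These cases are not independent, because each pair of lines was counted from both sides. The replicate block gave 2 genes in the *NRF2* KO line, *Idh1* (−1.10, adjusted p = 0.000857) joining *Me1*, and moved no other count by over 1.5 times. Over all alternatives, 1532 fold changes of the 10 genes kept their direction and side of the threshold, 21 lost a call, 17 gained one and 30 changed sign, all of the last uncalled. The cause of these shifts was not tested.

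Signs that changed with the scaling were those of *Tkt* in #2 against LL2 WT (−0.0133, quantile normalization), *Tkt* in #3 against #1 (0.0025, median-ratio rescaling), *Rpe* in #2 and #3 against LL2 WT (−0.0496 and −0.0063, quantile), *Me1* in #2 against #1 (0.0561, rescaling) and *Idh1* in #1 against LL2 WT (−0.0685 rescaled, −0.0793 quantile). The all-gene median in #1 was 0.11 as deposited, 0.01 rescaled and 0.03 with quantiles. Without the third sample of every line, the signs of *Pgls* in the *NRF2* KO line (−0.0341), *H6pd* in #2 against #1 (−0.0457) and *Me1* in #2 against #1 (0.0021) changed.

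With replicates left out, ranges that crossed 0 against LL2 WT were −0.1138 to 0.1804 for *Pgls* and −0.2977 to 0.0262 for *Taldo1* in the *NRF2* KO line, and −0.1746 to 0.2135 for *Idh1*, −0.1161 to 0.0895 for *Idh2* and −0.8338 to 0.142 for *Shpk* in #1. Between clones they were −0.2249 to 0.0831 for *Pgls*, −0.0145 to 0.0734 for *Rpe* and −0.1452 to 0.4405 for *Idh1* in #3 against #2, and −0.1491 to 0.2407 for *H6pd* in #2 against #1. Against the *NRF2* KO line *H6pd* ran from −0.3784 to 0.012 in #1 and from −0.3498 to 0.1197 in #2.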
